A study of Mus musculus with 3 samples.

Results

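The early response of CH12 cells to TGFb was read from mRNA by comparing 2 of the 3 libraries of the series, the one labelled as treated with TGFb for 6 h and the one labelled control. CH12 is a mouse B lymphoma line, kept here in RPMI-1640 medium with serum, antibiotics and b-mercaptoethanol, and TGFb was given at 5 ng/ml. The 24 h library of the same treatment is quoted only beside values of the 6 h comparison. Of 24901 gene rows in the deposited tables, 10590 genes were measured, meaning that they had at least 30 counts and at least 1 normalized CPM (counts scaled to library size) in the higher of the 2 libraries. Each group was 1 library of 1 cell line, so no spread between cultures could be estimated and no test was run. The labels give no time for the control, so time in culture and treatment cannot be told apart.

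TGFb binds a type II receptor, which recruits and activates a type I receptor kinase. The kinase phosphorylates Smad2 and Smad3, which join Smad4, enter the nucleus and act with other factors on target genes, some of which code for brakes of the same pathway. In B cells the cytokine is known for restraining growth and for directing immunoglobulin class switching to IgA, and CH12 cells have long been used to study that switch. The series as a whole concerns where Smad3 and Smad7 bind the genome of these cells, and its mRNA libraries alone are described here.

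A gene was counted as higher or lower when the libraries were at least 2-fold apart, and only such genes are said to have risen or fallen. By that rule 258 genes rose (2.44% of those measured) and 39 fell (0.368%), 297 in all (2.8%), and the other 10293 stayed within 2-fold. The median gene had a log2 ratio of -0.01, and 5165 genes (48.8%) lay above a ratio of 1 while 5425 (51.2%) lay below it. Rises also went further than falls: 50 genes were at least 4-fold higher and 12 at least 8-fold higher, but 2 were at least 4-fold lower.

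The genes that rose were mostly low in control. Their median level there was 2.72 CPM, or 1.44 TPM (a unit scaled to transcript length), against 38.9 CPM and 20.3 TPM over all measured genes, and the genes that fell had medians of 8.37 CPM and 4.33 TPM. Of 193 measured genes under 1 CPM in control 84 (43.5%) rose. This set could be measured only through its 6 h level and so had to lie above a ratio of 1. The same limit holds for every measured gene named below with a control level under 1 CPM. The reverse limit holds for those under 1 CPM at 6 h, which had to lie below a ratio of 1. The share that rose was 7.01% of genes between 1 and 3 CPM in control, 1.59% between 10 and 30 CPM and 0.155% above 300 CPM. Only 20 of the risen genes reached 100 CPM at 6 h. The scatter of all measured genes shows this funnel, wide at low control levels and narrow at high ones.

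**Figure D1:**
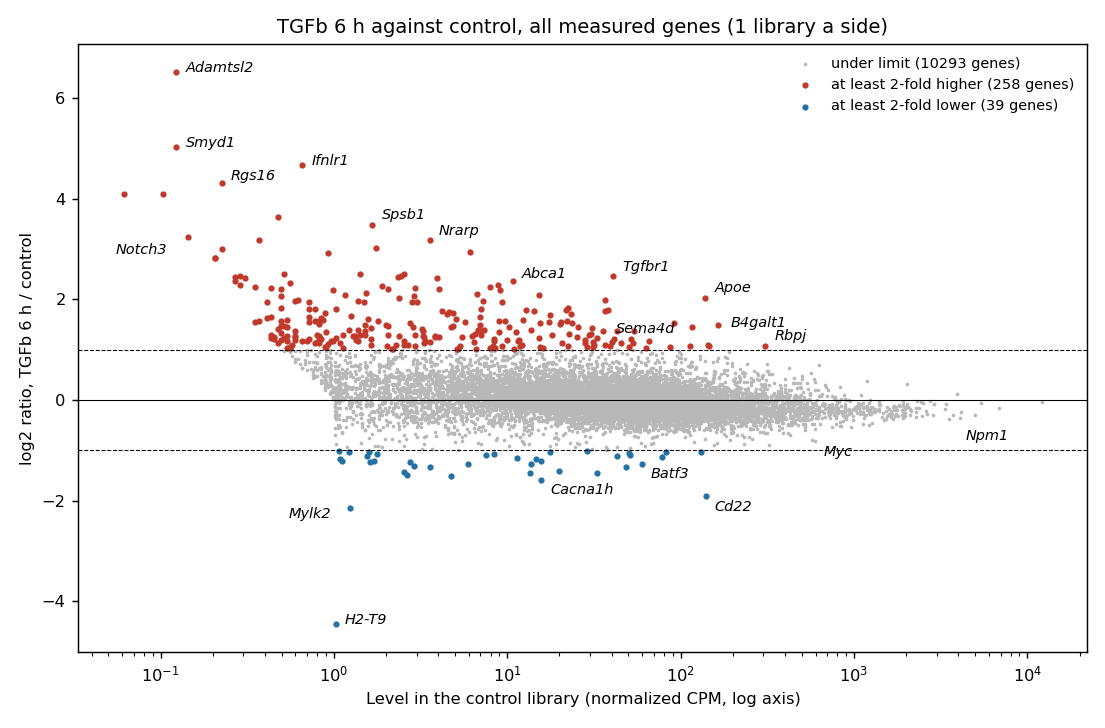
Log2 ratio of normalized CPM, TGFb 6 h over control (vertical axis), against the level in control (horizontal log axis), with 1 point for each of 10590 measured genes. Red marks the 258 genes at least 2-fold higher, blue the 39 at least 2-fold lower, and dashed lines the 2-fold limits. H2-T9 had 0 counts at 6 h and is drawn at a floor of 3 counts.

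The libraries held 51386081 counts in control and 64229801 at 6 h, so that 1 count was worth 0.0206 and 0.0155 CPM. Fold values below carry the exact 95% interval (Clopper-Pearson, conditional on the sum of both counts), an interval for counting error alone, since the reads carried no molecular identifiers and copies of a molecule were counted too. Longer transcripts tended to have higher ratios, with a Spearman rank correlation of 0.4046 across genes and a median log2 ratio from -0.21 in the shortest of 20 length bins to 0.28 in the longest. In a bulk culture fewer cells of a type and less RNA per cell cannot be told apart. All 10 B cell markers were measured, with summed levels of 4800 CPM in the control library against 4660 CPM at 6 h, and none passed 2-fold. Of 16 myeloid markers 4 were measured, summing over the list to 25.6 and 35.6 CPM, with Lyz2, S100a8 and Elane at or near 0. The 4 measured had log2 ratios of 4.10 (Cx3cr1, from 3 control counts), 0.98 (Csf1r), 0.30 (Adgre1) and 0.04 (Cd68). T cell markers summed to 157 and 261 CPM, nearly all of it Lck, with 2 of 12 measured. Fibroblast and endothelial markers summed to 5 and 11 CPM with 3 of 12 measured, NK cell markers to 6.4 and 6.73 CPM with 1 of 8, and erythroid and mast cell markers to 6.44 and 6.72 CPM with 2 of 10. The part of any of these cells in the results was not tested.

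Among the receptors of the TGFb family, the type I chains Tgfbr1 and Acvr1b stood furthest above control. Tgfbr1, the TGFb type I receptor kinase (chromosome 4, 47353222 to 47414926 in GRCm38.p6), rose from 40.9 to 225 CPM, 5.51-fold (5.26 to 5.78). Acvr1b, the type I receptor for activin, rose from 9.896 to 22.6 CPM, 2.29-fold (2.06 to 2.54). Tgfbr2, the type II receptor for TGFb, stood at 101 and 189 CPM (log2 ratio 0.91). Bmpr2 and Acvrl1, receptors used by bone morphogenetic proteins, stood at log2 ratios of 0.69 and 0.68. Bmpr1a, Acvr2b and Acvr2a, the last with reads shared with another gene, had log2 ratios of 0.03, -0.03 and 0.04. In all, 2 of 8 measured receptors rose and none fell, with a median log2 ratio of 0.68 (2.44% and -0.01 over all genes). With the length trend removed the median was 0.52, and 3 of the 8 lay below a ratio of 1.

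The bases upstream of the Tgfbr1 start are shown because this is the TGFb family receptor gene with the largest rise, in RefSeq's window on GRCm38.p6 at chr4:47352972-47353221, plus strand. Capitals mark GGCGCC, a short GC-rich element to which Smad proteins can bind, and the window holds 1 of them and no CAGAC, the classic Smad box, on either strand.
Tgfbr1: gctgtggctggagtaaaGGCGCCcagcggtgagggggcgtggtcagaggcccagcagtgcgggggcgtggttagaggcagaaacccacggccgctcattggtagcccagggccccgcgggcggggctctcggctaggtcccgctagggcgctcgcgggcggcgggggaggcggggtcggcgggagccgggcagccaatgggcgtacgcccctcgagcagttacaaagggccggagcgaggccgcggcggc

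The Smad genes divided by their role. Smad6 and Smad7, the inhibitory Smads that block receptors, rose, Smad6 from 2.76 to 7.94 CPM (2.88-fold, interval 2.38 to 3.51) and Smad7 from 28.8 to 59.4 CPM. The signal carriers Smad2 and Smad3, the shared partner Smad4 and the BMP carrier Smad5 all had log2 ratios between -0.11 and 0.06. The median of the 6 measured Smads was 0.01, a sign that turned with DESeq2 size factors and with the length trend removed.

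The brakes that act on Smads or receptors included the steepest rises of the pathway. Spsb1, an adaptor that brings the type II receptor to degradation, went from 1.67 to 18.6 CPM, 11.2-fold (8.904 to 14.2) higher. Ldlrad4, a membrane protein that keeps Smads from the receptor, rose from 2.43 to 13.4 CPM, 5.53-fold (4.56 to 6.76). The related Smad corepressors Skil and Ski rose 3.93-fold and 2.19-fold, to 145 and 99.6 CPM. The other 18 of 22 measured members stayed within 2-fold, among them the ubiquitin ligase Smurf2 (0.35), the corepressor Tgif2 (-0.46) and the Smad phosphatase Ppm1a (-0.33). The median of the list was 0.10, and over all measured genes 2.44% rose.

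Genes that store or release the ligand moved in both directions. Ltbp1, which tethers latent TGFb to the matrix, rose from 10.2 to 27.9 CPM, and Furin, the protease that cuts the TGFb precursor, rose from 112 to 236 CPM. Nrros, which tethers latent TGFb on the surface of leukocytes, fell from 78.2 to 35.7 CPM, 2.19-fold (2.08 to 2.31). Its homologue Lrrc32 stood at 0.21 and the ligand gene Tgfb1 at 0.15. Of 10 measured genes 2 rose and 1 fell (2.44% and 0.368% over all genes), with a median of 0.14.

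Notch receptors are cut on contact with a ligand, and their freed inner part joins the DNA-binding protein Rbpj on target genes. Of 30 measured Notch pathway genes 4 rose and none fell (2.44% and 0.368% over all genes), with a median log2 ratio of 0.11. The 4 were at different steps of the pathway: Nrarp, an induced inhibitor of the Notch complex, rose from 3.56 to 32.1 CPM, Notch1 rose from 28.1 to 64.05 CPM, Rbpj rose from 307 to 648 CPM, and Notch3 had 7 counts in control and 87 at 6 h (0.144 and 1.35 CPM). Notch3 was under 1 CPM in control and measured only through the 6 h library. Of the other 29 genes 3 rose, where 1.67% of all genes at that control level did. The coactivator Maml2 stood close to the limit at 14.8 and 28.1 CPM. Classic Notch targets and modifiers were mixed, with Hes5 at 0.83, Hes6 at -0.25, Dtx1 at -0.33 and the glycosyltransferase Mfng at -0.56. Hes6 and Dtx1 were picked here after their values were seen.

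The Nrarp window (chr2:25180508-25180757, plus strand) is printed because it holds 4 copies of CAGAC, in capitals, 2 of them back to back. Windows with at least 4 copies on both strands together were 0.401% of the 10977 windows of measured genes.
Nrarp: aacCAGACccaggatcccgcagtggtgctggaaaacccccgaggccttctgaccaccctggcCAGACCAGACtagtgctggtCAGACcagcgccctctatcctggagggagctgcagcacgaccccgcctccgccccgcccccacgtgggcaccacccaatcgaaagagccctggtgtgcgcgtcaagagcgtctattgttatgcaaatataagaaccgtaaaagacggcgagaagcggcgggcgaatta

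Liver X receptors sense oxidised sterols and turn on genes that export cholesterol from the cell. Of the genes in this list 3 rose, all of them in cholesterol transport. Abca1, the exporter that loads cholesterol onto apolipoproteins, rose from 10.8 to 55.2 CPM, Abcg1, which passes it to mature lipoproteins, from 21.9 to 74.96 CPM, and Apoe, the acceptor apolipoprotein, from 139 to 568 CPM, 4.095-fold (3.99 to 4.204). Npc1, which moves cholesterol out of lysosomes and shared reads with another gene, stood at 30.4 and 57.6 CPM. The receptors' own genes were little different (Rxra 0.28, Nr1h2 -0.03), and so were the lipogenic targets Srebf1 (0.20) and Scd1 (0.10), which shared reads with other genes. These 4 were picked after their values were seen. The 17 measured genes had a median of 0.25, and over all measured genes 2.44% rose. The synthesis side lay the other way: of 24 measured cholesterol synthesis genes, 23 had a ratio below 1 (51.2% of all genes did). None passed 2-fold, and the median was -0.24. With total counts 20 of the 24 lay below 1, and with TPM 17, at a TPM median of -0.08.

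**Figure D2:**
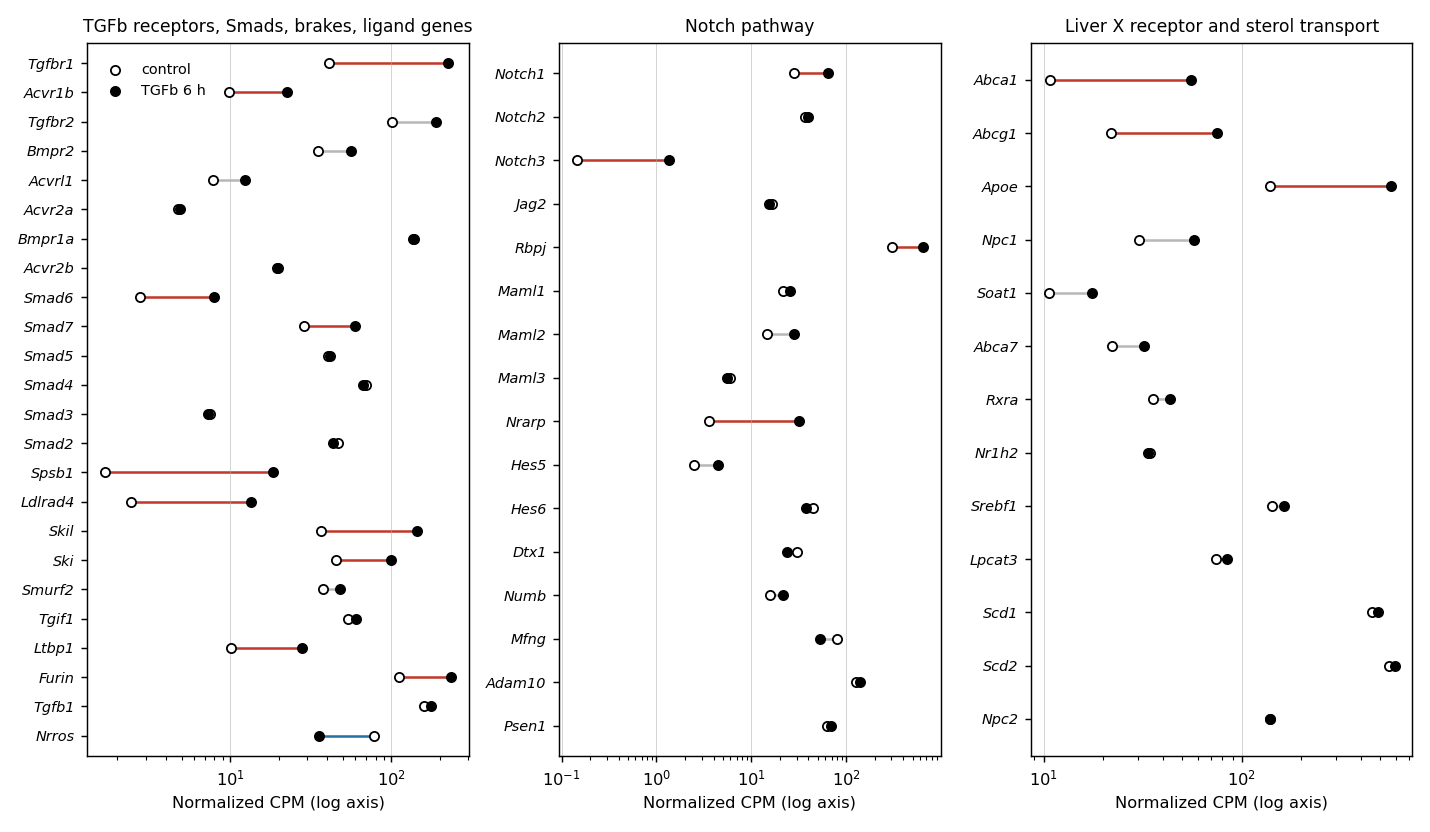
Normalized CPM (log axis) in control (open) and at TGFb 6 h (filled) for members of 3 gene lists, 1 library each, with red lines for genes at least 2-fold higher, blue for at least 2-fold lower and grey within the limit. In the left panel the type I receptor genes Tgfbr1 and Acvr1b and the brakes Spsb1, Ldlrad4, Skil and Smad6 show long red lines, while Smad2, Smad3, Smad4 and Smad5 show paired points.

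Class switching depends on base excision, mismatch repair and end joining, which turn damaged switch regions into joined breaks. The uracil glycosylase Ung, which removes uracil from DNA, stood at a log2 ratio of -0.42, the abasic site nuclease Apex1 at -0.49 and the end-joining ligase Lig4 at -0.84, all within 2-fold. Of 30 measured switch and repair genes none fell, where 0.368% of all measured genes did. The number that rose is not reported here. Their median was -0.08, with a sign that turned with total counts and the deposited TPM.

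The 27 measured regulators of B cell and plasma cell fate had a median of 0.03, and none fell (0.368% of all measured genes did). Bach2, a repressor that holds back plasma cell fate and permits switching, rose from 12.3 to 37.2 CPM, 3.02-fold (2.76 to 3.304). Irf4, which serves both switching and plasma cell fate, stood at 197 and 312 CPM (log2 ratio 0.66). The plasma cell factor Bhlha15 stood at -0.45, and the B cell identity factors Pax5 and Ebf1 at -0.15 and 0.03. Ikzf3, the lymphoid factor Aiolos, rose from 144 to 305 CPM.

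Signalling genes of the B cell receptor mostly lay above control but within the limit. Of 41 measured, 29 had a ratio above 1 (48.8% of all genes did), and the median was 0.13. Itpr2, a calcium channel of the endoplasmic reticulum that opens on receptor signals, was the 1 member that rose (25.3 and 60.6 CPM). This 1 of 41 was near the share of all measured genes that rose (2.44%). Rasgrp3, the phosphatase gene Inpp5d and the adaptor ligases Cbl and Cblb stood at log2 ratios of 0.77, 0.72, 0.69 and 0.68, and Bank1, a B cell scaffold, at -0.68.

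Inhibitory and Fc receptors parted in direction. Cd22, a sialic acid-binding receptor that damps the B cell receptor (chromosome 7, 30865404 to 30880342), fell from 139 to 37.0 CPM, 3.76-fold (3.59 to 3.94) lower. Siglecf, another sialic acid-binding receptor, rose from 2.37 to 9.65 CPM, Cd300lf from 6.79 to 17.8 CPM and the Fc receptor gene Fcgr3 from 3.31 to 7.24 CPM, and all 3 shared reads with other genes. Fcrla, an Fc receptor-like protein inside B cells, rose from 8.41 to 18.8 CPM, and Cd5, a surface brake on antigen receptors, stood at 58.96 and 114 CPM. With 4 of 26 measured receptors higher and 1 lower (2.44% and 0.368% over all genes), the list had a median of 0.35. This median turned to -0.13 when genes with shared reads were left out. St6gal1, which makes the sialic acid linkage that Cd22 binds, was just inside the limit at 37.5 and 19.1 CPM (log2 ratio -0.97).

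The Cd22 window (chr7:30879029-30879278, minus strand) is printed because this gene stood lowest when all genes were ranked by the log2 ratio of CPM + 1. It lies before the RefSeq start, which is inside the span of the gene given above. Neither CAGAC nor GGCGCC occurs in it, so it holds no capitals.
Cd22: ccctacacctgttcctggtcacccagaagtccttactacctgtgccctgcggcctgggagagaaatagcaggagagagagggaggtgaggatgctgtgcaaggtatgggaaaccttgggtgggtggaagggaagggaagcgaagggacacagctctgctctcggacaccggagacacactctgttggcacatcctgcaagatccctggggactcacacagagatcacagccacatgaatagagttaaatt

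Several genes for DNA-binding factors rose. Ahr, the aryl hydrocarbon receptor, a ligand-dependent factor of its own family that was listed here with the nuclear receptors, rose from 17.7 to 56.5 CPM, 3.197-fold (2.97 to 3.45). Ahr was the only one of 21 measured genes in the nuclear receptor list to pass 2-fold, where 2.8% of all measured genes did. Cyp1a1, its best known target enzyme, rose from 0.597 to 1.54 CPM from 29 control counts, and Ahrr, the repressor it induces, stood at 7.45 and 13.7 CPM, and both were picked after their values were seen. Hoxd4, a homeobox gene, rose from 7.98 to 37.6 CPM, and its relative Hoxc6 stood at 8.09 and 15.9 CPM. Elk3, an Ets factor that acts with serum response factor, rose from 42.9 to 110.0 CPM, and Wwtr1, the Hippo coactivator TAZ, from 28.2 to 61.98 CPM. Mycl, a small Myc relative, rose from 1.502 to 3.65 CPM, while Myc itself stood at 593 and 335 CPM (log2 ratio -0.82) and its antagonist Mxd4 at 17.7 and 29.96 CPM.

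Id2 and Lmo2 moved in opposite directions. Id2, which binds E proteins and keeps them off DNA, rose from 23.2 to 76.1 CPM, and Lmo2, a bridging partner of E proteins, fell from 50.8 to 23.8 CPM, 2.13-fold (2.001 to 2.28) lower. The E proteins Tcf3, Tcf4 and Tcf12 stood at log2 ratios of 0.01, 0.51 and 0.31, and Id3 at 0.31. The list's median of -0.03 over 10 genes turned sign with total counts and TPM.

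Further factors fell. Nfil3, a repressor in clock and lymphocyte programmes, fell from 32.9 to 11.97 CPM, 2.75-fold (2.52 to 3.001), and Batf3, an AP-1 factor, from 59.8 to 24.9 CPM, 2.41-fold (2.26 to 2.56). Pou2f3, an Oct factor, fell from 13.6 to 4.97 CPM, the epithelial Ets factor Ehf from 42.6 to 19.7 CPM and Lef1, a nuclear effector of Wnt signals, from 3.56 to 1.41 CPM. In the same list as Batf3, the early response gene Ier5l rose from 1.25 to 3.995 CPM and Bach2, described above, rose too. The AP-1 gene Jund and the immediate early gene Egr2 stayed within 2-fold, with Jund at -0.49 and Egr2 at 0.79. Wnt10a, a secreted Wnt, stood at 156 and 84.01 CPM. Lef1 was the only one of 22 measured Wnt genes past the limit (2.8% of all measured genes were). The medians of the AP-1 and Wnt lists, -0.01 and -0.04, both turned sign with total counts, TPM and no minimum level, the first also with upper quartile scaling.

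Cytokine receptors were led by Ifnlr1, the chain that binds type III interferons. It had 32 counts in control and 1077 at 6 h (0.658 and 16.7 CPM), 25.4-fold (17.9 to 37.4) higher, and 18.1 CPM at 24 h. Its window (chr4:135686207-135686456, plus strand) is printed because it was the cytokine receptor gene furthest above control, with its 1 Smad box, read on the opposite strand as GTCTG, in capitals.
Ifnlr1: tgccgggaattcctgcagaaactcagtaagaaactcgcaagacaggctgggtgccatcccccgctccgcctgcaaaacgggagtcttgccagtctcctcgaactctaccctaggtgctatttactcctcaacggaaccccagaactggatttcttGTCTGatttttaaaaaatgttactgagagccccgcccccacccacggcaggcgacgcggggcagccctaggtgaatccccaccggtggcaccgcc

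The other receptors of the class stood closer to control. Il1r2, a decoy receptor for interleukin-1, rose from 1.13 to 2.32 CPM and Csf2ra, the specific chain of the GM-CSF receptor, from 0.514 to 1.21 CPM. Csf1r was just short of the limit at 8.33 and 16.4 CPM, and Il2rb and both interferon gamma receptor chains, Ifngr2 and Ifngr1, stood at 0.90, 0.76 and 0.68. Of 32 measured cytokine receptors 3 rose (2.44% over all genes). The median was 0.28, or 0.10 without genes that share reads and 0.02 with no minimum level. Ifnlr1 and Csf2ra were under 1 CPM in control and measured only through the 6 h library. Of the other 30 receptors 1 rose, where 1.67% of all genes at that control level did.

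The kinases and factors below these receptors had a median of 0.32 over 27 genes. Of the 27, 19 had a ratio above 1 and 3 rose (48.8% and 2.44% over all genes). The median was 0.205 with the length trend removed and 0.207 without genes that share reads. The kinase gene Jak2 rose from 31.2 to 69.2 CPM, and the feedback inhibitor Socs3 rose from 1.42 to 3.45 CPM. Cish, a further inhibitor, lay just short of the limit at 3.004 and 6.001 CPM. Of 18 measured interferon-stimulated genes 2 rose and none fell (2.44% and 0.368% over all genes). Oasl2 rose from 0.494 to 1.37 CPM, Bst2 stood at -0.57 and Isg15 at -0.34, and the list's median of -0.07 turned sign with total counts and TPM. Isg15 was picked after its value was seen.

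Chemoattractant receptors steer cells through tissue. Of 23 measured, 8 rose and none fell, with a median of 0.50. Of the 8, 4 were under 1 CPM in control and so were measured only through the 6 h library. Among the 19 members at or above 1 CPM in control 4 rose, where 1.67% of all genes at that control level did, and the median was 0.06. The median was 0.16 without genes that share reads, 0.11 with a minimum of 5 CPM and 0.01 with 10 CPM. Ccr1 rose from 8.83 to 42.7 CPM and Cxcr4, the receptor that holds B cells in bone marrow and dark zones, from 36.7 to 124 CPM, 3.39-fold (3.22 to 3.57). Ccr6 rose from 1.48 to 5.67 CPM, and Gpr183, which follows oxysterols to the follicle edge, from 5.35 to 11.3 CPM. Cxcr3, S1pr4 and Cx3cr1 stayed under 2 CPM at 6 h: Cxcr3 rose from 0.226 to 1.803 CPM, S1pr4 from 0.576 to 1.23 CPM, and Cx3cr1 had 3 counts in control and 68 at 6 h, a ratio of 17.1-fold with a counting interval of 5.62 to 85.1. Cxcr5, the follicle homing receptor, which shared reads, stood at 98.3 and 191 CPM, and the scavenging receptor Ackr3 at 58.9 and 32.4 CPM.

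Rgs proteins shut off the G proteins behind those receptors. Of 11 measured Rgs genes 4 rose and none fell, with a median of 0.71, which was 0.47 with a minimum of 5 CPM, 0.38 with 10 CPM and 0.35 with none. Over all measured genes 2.44% rose. Among the 9 at or above 1 CPM in control 3 rose, where 1.67% of all genes at that level did, and the median was 0.52. Rgs16 rose from 11 to 287 counts (0.226 and 4.46 CPM), Rgs1 from 11.6 to 26.5 CPM, Rgs12 from 9.32 to 19.6 CPM and Rgs9 from 2.16 to 4.35 CPM. Rgs14, which acts on Ras signals too, stood at -0.42. Other receptors coupled to G proteins also rose, among them the adenosine receptor Adora2b (2.55 and 14.5 CPM), the proton sensor Gpr4 (1.89 and 9.13 CPM) and the adhesion receptor Adgrg1 (4.86 and 16.1 CPM).

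**Figure D3:**
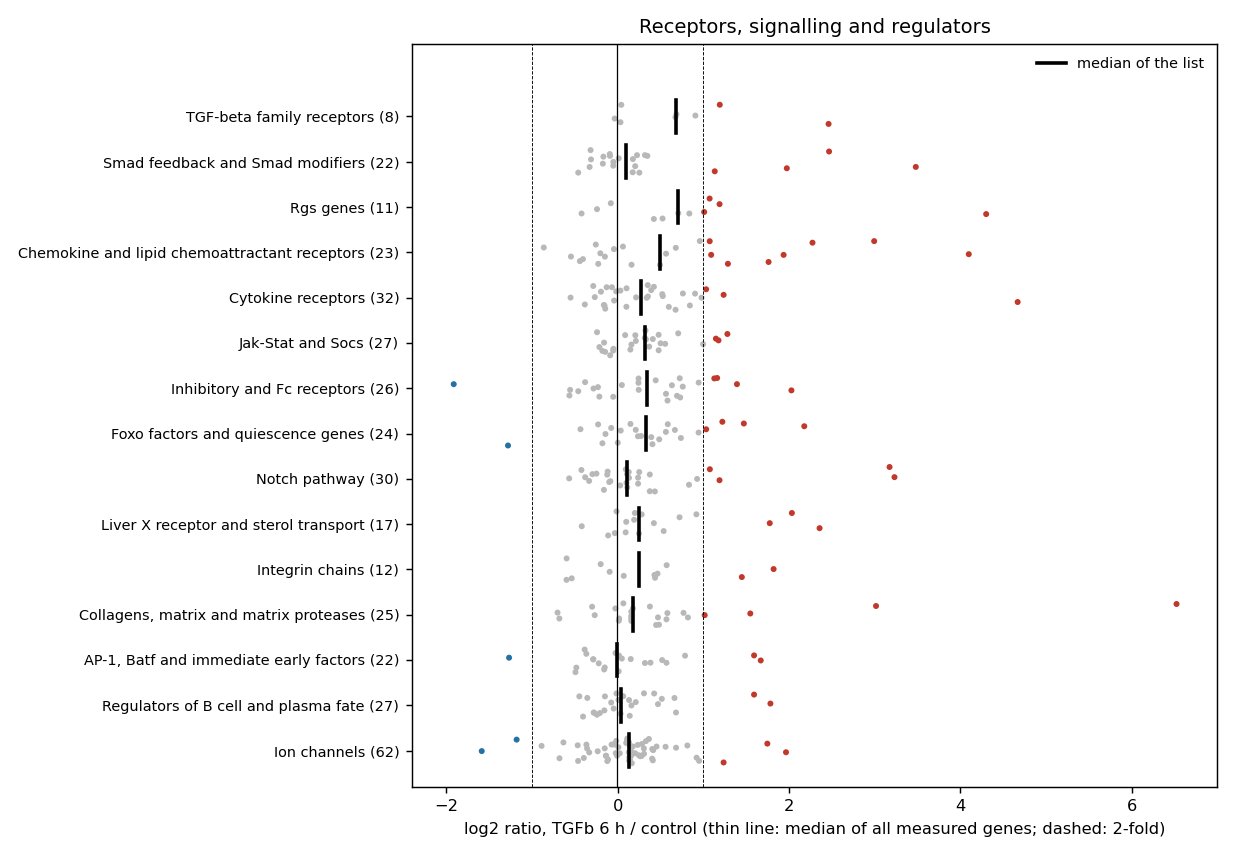
Log2 ratio, TGFb 6 h over control, of each measured member (points) of 15 gene lists, with the number measured in brackets and a black bar at the list's median. Red points are at least 2-fold higher and blue at least 2-fold lower. The medians of the Rgs genes (0.71) and the TGFb family receptors (0.68) lie furthest to the right at the minimum of 1 CPM (with 10 CPM they were 0.38 and 0.69), and the point at 6.52 is Adamtsl2. With the length trend removed these medians were 0.64 and 0.52, and that of the chemoattractant receptors was 0.57.

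Genes of other signalling routes rose one by one. Dusp4, a phosphatase that ends MAP kinase signals, rose from 15.3 to 64.7 CPM, while its relative Dusp5 stood at -0.86, and the kinase gene Rps6ka2 rose from 2.04 to 9.39 CPM. Nfkbiz, a nuclear regulator of NF-kB, rose from 23.7 to 67.9 CPM, and the receptor Tlr2 from 20.4 to 59.4 CPM. Neurl3, a ubiquitin ligase, rose from 2.35 to 12.8 CPM, and Osgin1, a growth inhibitor linked to oxidant stress, from 6.71 to 28.7 CPM. Eif2ak3, the kinase PERK that slows translation, rose from 40.02 to 88.8 CPM.

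Genes that accompany rest from growth lay above control as a list, with a median of 0.33 over 24 measured genes. The unusual cyclin Ccng2, which is highest in resting cells, rose from 9.05 to 40.98 CPM, 4.53-fold (4.09 to 5.02). Trp53inp1 rose from 4.88 to 13.5 CPM, Sesn3, a brake on mTOR, from 15.3 to 35.8 CPM and the antiproliferative gene Btg1 from 63.4 to 129.9 CPM. Cited4, a coactivator that binds p300 and CBP, fell from 13.8 to 5.67 CPM, 2.43-fold (2.13 to 2.76). Ypel3, linked to growth arrest, rose from 14.2 to 48.7 CPM. None of the 26 measured G1 cyclins and Cdk inhibitors passed 2-fold, where 2.8% of all measured genes did. Cdkn2d stood at 0.90, Ccne1 at -0.63 and Cdkn1a at 0.44, and the list's median of -0.05 turned sign with total counts and TPM. Among 17 Bcl2 family genes the death activator Bmf rose from 3.85 to 9.296 CPM, where 2.44% of all measured genes rose.

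Matrix and adhesion genes held the steepest rise of all. Adamtsl2, a secreted matrix protein that binds latent TGFb binding proteins, had 6 counts in control and 730 at 6 h, or 0.123 and 11.3 CPM, 91.9-fold with an interval of 42.03 to 251. The collagen gene Col15a1 rose from 1.75 to 14.1 CPM and the protease Adamts7 from 17.3 to 50.7 CPM. The laminin chain Lama5 rose from 5.102 to 10.3 CPM. So 4 of 25 measured matrix genes rose, where 2.44% of all measured genes did, and the median was 0.18. Adamtsl2 was under 1 CPM in control and measured only through the 6 h library. Of the other 24 genes 3 rose, where 1.67% of all genes at that control level did. Of 12 integrin chains, Itga6, which binds laminin, rose from 22.5 to 79.4 CPM and Itgax from 0.535 to 1.46 CPM, with shared reads, while Itgb1 stood at -0.59. Mpzl2, an adhesion protein of epithelia and thymus, rose from 0.473 to 5.91 CPM, and Jup, the junction protein plakoglobin, from 4.46 to 14.5 CPM. Sdc4, a heparan sulfate proteoglycan, fell from 28.8 to 14.3 CPM, at the edge of the limit.

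Guidance receptors and glycan enzymes had single members far from control. Sema4d, a semaphorin of lymphocytes, rose from 116 to 315 CPM, its family's receptor Plxnd1 from 147 to 306 CPM and Efnb1, an ephrin, from 13.6 to 35.6 CPM. B4galt1, which adds galactose to glycans, rose from 164 to 461 CPM, 2.81-fold (2.74 to 2.88), and St8sia1, which makes the ganglioside GD3, from 0.597 to 2.32 CPM. Xylt1, which starts the sugar chains of proteoglycans, rose from 2.82 to 10.8 CPM, and Chst7, a sulfotransferase, fell from 17.7 to 8.67 CPM. Of 11 measured serpins, inhibitors of proteases, 2 fell and none rose (0.368% and 2.44% over all genes). The 2 were Serpinb6b (15.7 and 6.7 CPM) and Serpinb8 (2.76 and 1.17 CPM).

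Related T-type calcium channels went opposite ways. Cacna1g rose from 7.22 to 28.2 CPM, 3.91-fold (3.48 to 4.39) higher, and Cacna1h fell from 15.7 to 5.24 CPM, 3.0-fold (2.64 to 3.42) lower. In TPM, which allows levels of different genes to be compared, Cacna1g went from 1.34 to 5.85 and Cacna1h from 2.88 to 1.07, so that the order of the pair turned. The potassium channel genes Kcnh4 (4.59 and 15.4 CPM) and Kcnj1 (1.03 and 2.43 CPM) rose and the channel subunit Kcnmb3 (1.09 and 0.482 CPM) fell. The other 57 of 62 measured channels stayed within 2-fold (median 0.13), and over all measured genes 2.8% passed it.

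Rp1l1, a photoreceptor cilium protein, rose from 6.11 to 47.1 CPM, and Ttc8, a Bardet-Biedl protein of the cilium, from 3.95 to 21.1 CPM. The other 27 of 29 measured cilium genes stayed within 2-fold (median 0.19), and over all measured genes 2.8% passed it. Smyd1, a methyltransferase of heart and muscle, had 6 counts in control and 257 at 6 h. Scel, a protein of the cornified envelope of skin, rose from 0.926 to 6.996 CPM. Vcam1, an adhesion molecule of endothelium, had 5 counts in control and 112 at 6 h, and was picked after its values were seen. In the same library the summed endothelial and fibroblast markers stood at 11 CPM against 5 CPM in control, with Pecam1 at 1.65 and 3.51 CPM, Pdgfrb at 1.21 and 3.19 CPM and Cdh5 at 1.81 and 3.61 CPM, and their part in these rises was not tested.

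Genes of vesicles, antigen presentation and proteolysis had a few strong members. Rab37, a GTPase of secretory granules, rose from 2.88 to 12.1 CPM and Rab20 from 6.83 to 17.9 CPM. H2-Ob, a chain of the H2-O complex that tunes peptide loading on MHC class II, rose from 9.26 to 35.4 CPM, while the class II genes Cd74 and H2-Oa stood at -0.07 and 0.14 and the class II activator Ciita at 71.99 and 133 CPM. Ctsw, a cathepsin of cytotoxic lymphocytes, rose from 1.42 to 8.07 CPM, Cpd, a carboxypeptidase of the Golgi, from 91.5 to 265 CPM, and Gsap, a protein tied to gamma-secretase, from 4.03 to 18.7 CPM. The secreted factors Lif and Ccl1 rose from 0.555 to 2.77 CPM and from 0.885 to 2.92 CPM. Both were measured only through the 6 h library, and of the 22 chemokine and cytokine genes at or above 1 CPM in control none rose. Il10 stood at 163 and 89.4 CPM (log2 ratio -0.87), and Il17d fell from 1.54 to 0.715 CPM.

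Ranked by the gain in CPM instead of by ratio, other genes led. Apoe, Rbpj, B4galt1 and Sema4d, all at least 2-fold higher, were among the 10 largest gains. The others were within 2-fold: Ccl22, a chemokine that draws T cells (2027 and 2518 CPM), Txnrd1, a reductase of thioredoxin (629 and 1020.0 CPM), the actin bundler Lcp1 (1196 and 1559 CPM), Actb (3943 and 4295 CPM) and Gdi2 (562 and 817 CPM), both with shared reads, and the amino acid carrier Slc38a2 (423 and 659.9 CPM). The 10 largest losses held no gene past 2-fold, and were led by the nucleolar protein Npm1 (4972 and 4062 CPM), the chaperone Hspa8 (4099.9 and 3216 CPM) and Ncl (3553 and 2735 CPM). The others were Hsp90ab1, Eif5a, Hnrnpab and the ribosomal protein genes Rps2, Rplp0, Rpl8 and Rpl13a.

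Several biosynthetic families lay slightly below control. The median log2 ratio of all measured genes also followed level. It was -0.18 above 300 CPM in control, -0.11 between 100 and 300 CPM and 0.16 between 3 and 10 CPM. List medians, here and for the families below, were not adjusted for level, and its part in them was not tested. All 42 measured factors that build the small ribosomal subunit lay below a ratio of 1 (51.2% of all genes did). Their median log2 ratio was -0.34 and none passed 2-fold. Large subunit factors had 44 of 45 below 1 and a median of -0.40, RNA polymerase I and its partners 19 of 20 and -0.37, and snoRNP proteins, which guide the modification of ribosomal RNA, 14 of 15 and -0.43. These 4 medians stayed below 0 under each scaling tried and were -0.34, -0.36, -0.26 and -0.29 with the length trend removed. Examples were the snoRNP protein Nhp2 (368 and 242 CPM), the methyltransferase Nop2 (317 and 202 CPM) and Ubtf, which opens ribosomal DNA (434 and 311 CPM).

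Ribosomal protein genes behaved differently once length was considered. All 82 measured cytoplasmic ribosomal protein genes lay below a ratio of 1. Their median was -0.20, and their share of counts was 10.011% in control and 9.152% at 6 h. These are short transcripts, and with the length trend removed their median was -0.00. The respiratory chain list likewise went from -0.21 to -0.02. Mitochondrial ribosomal proteins, of which all 77 were below 1, went from -0.30 to -0.14, and proteasome subunits from -0.23 to -0.08. Translation factors, nucleotide synthesis and polyamine genes had medians of -0.24, -0.26 and -0.23, and -0.18, -0.27 and -0.19 with the trend removed. Srm, the spermidine synthase, stood at 575 and 332 CPM and Impdh1, an enzyme of guanine nucleotide synthesis, at 28.2 and 17.1 CPM.

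Some large families leaned the other way. Of 320 measured zinc finger protein genes, 247 had a ratio above 1 (48.8% of all genes did). Their median was 0.18, or 0.13 with the length trend removed, and 5 rose while 2 fell (2.44% and 0.368% over all genes). Histone and DNA modifying enzymes had a median of 0.15, but 0.03 with the trend removed. None of the 84 was past the limit (2.8% of all measured genes were). Mitosis genes had a median of 0.09, led by Cenpe (0.53) and Mki67 (0.44). DNA replication genes had a median of -0.12, a sign that turned with TPM.

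**Figure D4:**
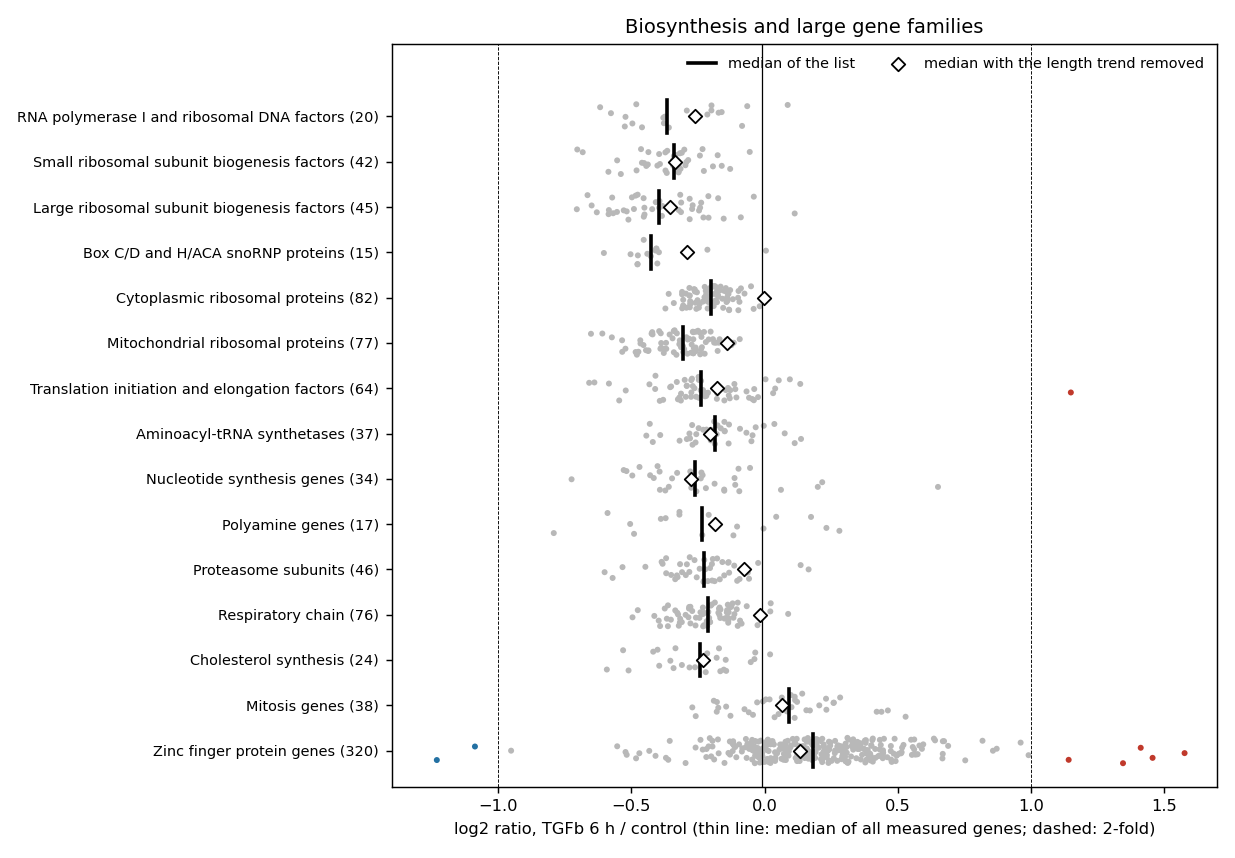
Log2 ratio, TGFb 6 h over control, of each measured member (points) of 15 gene families, with the number measured in brackets, the median as a bar and the median with the length trend removed as a diamond. Bar and diamond both lie left of the all-gene median for the ribosome biogenesis lists, while for cytoplasmic ribosomal proteins the bar is at -0.20 and the diamond at 0.

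Of the 39 genes that fell 13 were under 1 CPM at 6 h. These 13 were measured only through their control level and so had to lie below a ratio of 1. Cd22 and Acsl6 alone among the 39 were above 100 CPM in control. Acsl6, which charges fatty acids with coenzyme A, fell from 131 to 63.99 CPM. Plk2, a stress-response kinase, fell from 48.1 to 19.0 CPM, 2.53-fold (2.36 to 2.72), Trib1, a pseudokinase that directs protein breakdown, from 50.2 to 24.2 CPM, and Lipg, a lipase, from 14.7 to 6.54 CPM. Tnfrsf19, a receptor of the TNF family, fell from 11.3 to 5.11 CPM, the sugar carrier Slc5a9 from 5.97 to 2.47 CPM and Cd4 from 2.901 to 1.17 CPM. Mylk2, a myosin kinase, had 60 counts in control and 18 at 6 h. H2-T9, a class I gene whose reads were shared with its relatives, had 50 counts and 0. With the 0 set to the floor of 3 counts it stood 22.1-fold lower, a value that depends on that floor. Ovol3, Ydjc, Zfp781 and the histone genes Hist1h2ah and Hist1h3g shared reads too.

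Of 10551 pairs of measured genes next to each other on a chromosome, 24 had both genes past 2-fold. In 23 pairs both rose, in none both fell, and in 1 pair the neighbours went opposite ways. Counted from the risen genes, 46 of 513 neighbours had risen (8.97%, where 2.44% of all measured genes rose). In 15 of the 23 the gap was within 50 kb. Col15a1 ends 40.1 kb from the start of Tgfbr1, Eml5 and Ttc8 are 19.0 kb apart, and Zfp691 and Ermap 1.3 kb. On chromosome 17 Abcg1, Tff1 and Tmprss3 follow one another with gaps of 43.4 and 14.2 kb, and Tff1 rose from 0.3498 to 1.65 CPM and Tmprss3 from 0.535 to 1.197 CPM. In the Adamtsl2 and Sardh pair (79.4 kb) the second gene rose from 0.288 to 1.59 CPM. Rab37 with Cd300lf and Smpd5 with Oplah overlap, and the last 3 of these share reads with other genes. Sardh, Eml5 (shared reads), Tff1, Tmprss3 and Oplah were named for their position after their values were seen.

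Across the windows of 250 bases before RefSeq starts (found for 8592 of the 10590 measured genes, 195 of the 258 that rose and 26 of the 39 that fell), CAGAC on either strand occurred in 40.3% of all windows, 46.9% of those of genes that rose and 36.1% of those of genes that fell. GGCGCC occurred in 16.7%, 11.7% and 19.4%. The AP-1 letters TGANTCA occurred in 4.0%, 7.4% and 11.1%, the last being 4 of 36 windows. The Ets letters CCGGAAG occurred in 14.7%, 3.9% and 5.6%, and in 28.8% of the 118 windows of the ribosome biogenesis lists. None of these motifs contains another. Other motifs were counted too, with shares in the same order. The Smad palindrome GTCTAGAC occurred in 0.2%, 0.0% and 0.0% of windows and the Rbpj site GTGGGAA in 5.4%, 5.5% and 11.1%. The Runx site TGTGGTT occurred in 3.2%, 3.1% and 0.0%, and the Myc and Max E-box CACGTG in 8.4%, 6.6% and 8.3%. The GC box GGGCGG occurred in 58.2%, 49.2% and 61.1%, and the Cre site TGACGTCA in 2.8%, 2.7% and 2.8%. The windows of genes that rose also held fewer CG steps, with a median of 10 against 16 over all windows and 8 for genes that fell, at GC contents of 59.4%, 60% and 58.2%, and the part of this composition in the motif shares was not tested. A match describes letters and no binding was measured here.

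The levels of these genes at 24 h are given beside those at 6 h, and both times were set against the same control library. Of the 258 risen genes 206 stood higher at 24 h than at 6 h and 52 lower, and 40 were at least 2-fold above their own 6 h level. Over the same 10590 genes, 6.39% were at least 2-fold higher at 24 h and 2.06% lower. Rp1l1 had 6.11, 47.1 and 184 CPM in the control, 6 h and 24 h libraries, Scel 0.926, 6.996 and 41.4 CPM, Rps6ka2 2.04, 9.39 and 33.8 CPM and Lrig1 0.206, 1.45 and 11.6 CPM. By contrast Adamtsl2 (0.123, 11.3 and 11.9 CPM), Spsb1 (1.67, 18.6 and 20.4 CPM) and Adora2b (2.55, 14.5 and 13.8 CPM) stood at 24 h near their 6 h levels.

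For 16 risen genes the 24 h level was within 2-fold of control. Osgin1 had 6.71, 28.7 and 13.2 CPM, Rgs1 11.6, 26.5 and 14.9 CPM, Plk3 32.7, 76.5 and 58.1 CPM and Cerk 29.8, 72.6 and 56.8 CPM, and Tmprss3 (0.535, 1.197 and 0.345 CPM) was the 1 risen gene below control at 24 h. Tcp10c, which shared reads, had 0.309, 1.65 and 0.3102 CPM. Of the 39 fallen genes 29 stood lower still at 24 h, and 8 were within 2-fold of control there, such as Pou2f3 (13.6, 4.97 and 9.27 CPM) and Trib1 (50.2, 24.2 and 28.8 CPM). Ehf had 42.6, 19.7 and 7.41 CPM, Cacna1h 15.7, 5.24 and 2.76 CPM and Nrros 78.2, 35.7 and 16.96 CPM. Lrig1, Plk3, Cerk, Tmprss3 and Tcp10c were picked for their courses after their values were seen.

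**Figure D5:**
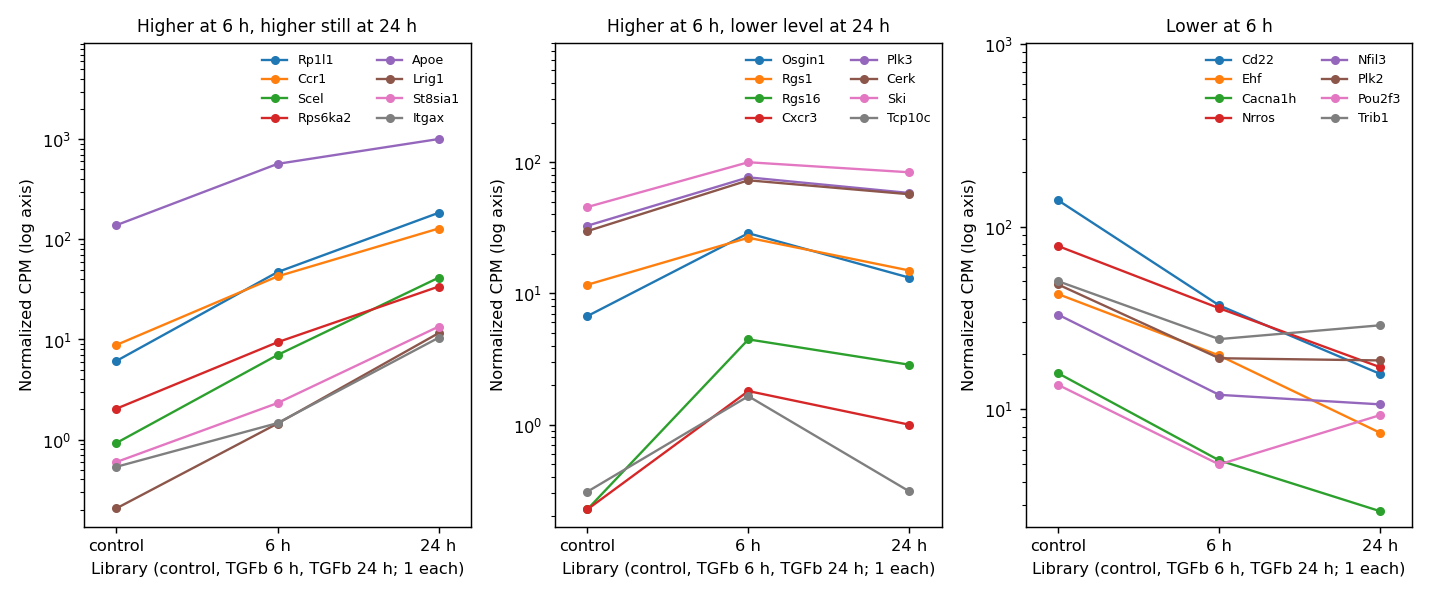
Normalized CPM (log axis) of chosen genes in the control, TGFb 6 h and TGFb 24 h libraries, 1 library each, joined by lines to guide the eye. Genes were chosen for the course that each panel's title names; Rp1l1 goes from 6.11 to 184 CPM, Osgin1 peaks at 28.7 CPM, and Cd22 ends at 15.6 CPM.

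Close to the limit, Vasn (log2 ratio 1.00, 5.23 and 10.5 CPM) counted as risen and Btbd19 (21.5 and 43.0 CPM) did not. Among falls Sdc4 (-1.01) counted and Wnt16 (5.18 and 2.596 CPM) did not. At the minimum level, Cd109 with 1.01 and 0.948 CPM was measured, and Hist1h2bq, at 0.995 CPM in its higher library, was not. Vasn, Btbd19, Wnt16, Cd109 and Hist1h2bq were named for their place at these limits.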

How the data were processed

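mRNA was measured by sequencing of poly(A) RNA from CH12 cells for 50 cycles, per the labels' protocols. Tools named in the submitters' processing notes were bedtools, RSEM, STAR and CASAVA 1.8.2, with mm10 as the build. Other versions, the annotation and the strand setting were not given in the sources used here. Per the file headers, the authors deposited expected counts, which RSEM shares out among genes that fit a read, and TPM values, scaled to transcript length, for each gene. Transcript lengths and effective lengths in the deposited tables were used for the length trend. All counts lay in 20668 protein-coding rows.

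Expected counts were rounded (totals moved by at most 2.5e-05%) and scaled by TMM factors over the 3 libraries (edgeR 4.0.16, R 4.3.3). The factors were 0.9459 in control and 1.0015 at 6 h. A gene at 0 was set to a floor of 3 counts for ratios. Ratios, intervals and figures were made in Python 3.11.15 with scipy 1.17.1 and matplotlib 3.10.9. The count rule and the interval were tested on simulated data. For 1204 measured genes (11.4%) an expected count was not whole, which marks reads shared with other genes, and the text says so where such a gene is named. Positions and upstream windows are those of RefSeq on GRCm38.p6, the assembly of mm10, matched for 10571 of 10590 genes. The length trend was removed by subtracting the median log2 ratio of each of 20 bins of effective length.

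The comparison, the 69 gene lists, the 6 marker lists and the rule for named genes were chosen with earlier results of these data known. The rule named the 60 highest and 40 lowest genes past 2-fold, ranked by the log2 ratio of CPM + 1, the 10 largest gains and losses in CPM, and of each list the members past 2-fold and up to 8 with the largest ratios, or every member of a list of under 16. Predicted gene models were left out, and some genes that the rule names are not reported here. Alternatives were other scalings (DESeq2 1.42.0 size factors among them), minima, limits, equal depth and genes without shared reads.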

Additional observations from a re-analysis of the deposited data

How the results depend on the processing

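The counts of 258 higher and 39 lower genes stayed within 1.5 times under 7 settings: DESeq2 size factors (252 and 42), total counts (316 and 29), upper quartile factors (266 and 39), TMM over the control and 6 h libraries alone (256 and 39), the length trend removed (248 and 36, of which 229 and 29 were genes counted without the removal), genes without shared reads (241 and 33) and equal depth (266 and 41). The deposited TPM with a minimum of 1 TPM gave 334 higher and 23 lower (93.6% higher against 86.9%). With no minimum the counts were 1264 and 980 (56.3% higher), with 5 CPM 153 and 22, and with 10 CPM 122 and 19. A minimum of 1 CPM in control, chosen after seeing the data, gave 174 and 39. A limit of 1.5-fold gave 728 and 230 (76.0% higher), 3-fold gave 88 and 4, and asking the whole counting interval to lie beyond 2-fold gave 163 and 16. Relative to TMM scaling, total counts moved the median gene by 0.0824 and TPM by 0.1581 on the log2 scale. Of 614 named genes none that was past 2-fold turned direction, and 29 of the 162 past 2-fold were under it in at least 1 of 7 settings. These 7 differ from those above in that the deposited TPM took the place of genes without shared reads. No paired analysis was possible because each group had 1 library, and for the same reason no library could be left out. Control counts limit the steepest ratios: genes such as Adamtsl2, with 6 control counts, have intervals several-fold wide, and no value here has a check in a separate culture.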
